A study of Mus musculus with 200 samples.

Results

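Medullary thymic epithelial cells with low Aire-GFP signal (GFPlo) were compared between Aire knockout (KO) and Aire wild-type (WT) mice. They number 91 of the 200 single cells of the study, 52 KO GFPlo and 39 WT GFPlo, and were taken by the cell type label that each cell carries. The remaining cells are 48 KO GFPhi and 61 WT GFPhi cells, with high GFP signal. All donors were female B6xNOD mice, 5 weeks old, and every mouse, KO or WT, carried an Aire-GFP transgene as a marker of Aire expression. Thymi were digested with collagenase and dispase, and single cells were sorted into plates by a gate for MHC class II and GFP that left out cells with CD45 or Ly51. Low signal does not say whether a cell is before or after its peak of Aire.

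Transcripts of each cell were copied from an oligo-dT primer, amplified linearly by in vitro transcription and counted per gene. KO GFPlo cells summed to 1847240 counts, with 2429 to 227660 per cell and a median of 23115.5. WT GFPlo cells summed to 2260672 counts, with 5417 to 307380 per cell and a median of 26266. Cells were sorted on 2 dates, 22 KO and 18 WT cells on the first and 30 KO and 21 WT cells on the second. No label names an animal, so each group is 1 sample, no difference was tested and no p-value is given. A level is the sum of counts over the cells of a group per 1000000 counts of that group (CPM), and ranges in parentheses are exact 95% intervals. They cover the counting error of tags and leave out any difference between cells, mice or dates. Primer barcodes were never shared between groups, so barcode and genotype cannot be told apart, whereas 11 of the 12 library pools held GFPlo cells of both genotypes.

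Aire is a nuclear protein that medullary epithelial cells use to transcribe genes otherwise confined to other organs. Peptides from these organ antigens are shown on MHC class II and class I molecules to developing T cells, and T cells that bind them strongly are deleted or become regulatory. Each cell transcribes only a small and varying share of the organ antigens, so a gene can be abundant in a few cells and at 0 in the rest. Loss of Aire causes autoimmunity in mice and in people.

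Some sorted wells carried leukocyte transcripts. A cell was called leukocyte-marked when 24 leukocyte genes summed to more counts than 13 epithelial genes. There were 19 such cells among the 52 KO GFPlo cells (4 of 22 and 15 of 30 by date), with 43.5% of the group's counts, and 6 among the 39 WT GFPlo cells (1 of 18 and 5 of 21), with 18.1%. The sums lay within 2-fold of each other in 12 KO cells and 8 WT cells, so the class is a range of values and not a cell type. In leukocyte-marked KO cells the epithelial genes stood at 806 CPM and B cell genes at 2295 CPM, against 6200 and 243 CPM in the other KO cells. In leukocyte-marked WT cells the epithelial genes stood at 521 CPM and B cell genes at 2640 CPM, against 6080 and 93.4 CPM in the other WT cells. The epithelial contrast follows from the rule that set the class. Summed levels of other genes differed between the marked cells of the 2 genotypes. Myeloid genes stood at 1708 CPM in marked KO cells and 95.4 CPM in marked WT cells. Per cell their medians were closer, at 123 CPM in marked KO cells (up to 13292) and 68.6 CPM in marked WT cells (up to 3105). Antibody-secreting cell genes stood at 282 CPM in marked KO cells and 18664 CPM in marked WT cells, in 2 of the 6 WT cells. The CD45-negative gate should remove leukocytes. Values without these cells are given beside many of the results below.

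**Figure D1:**
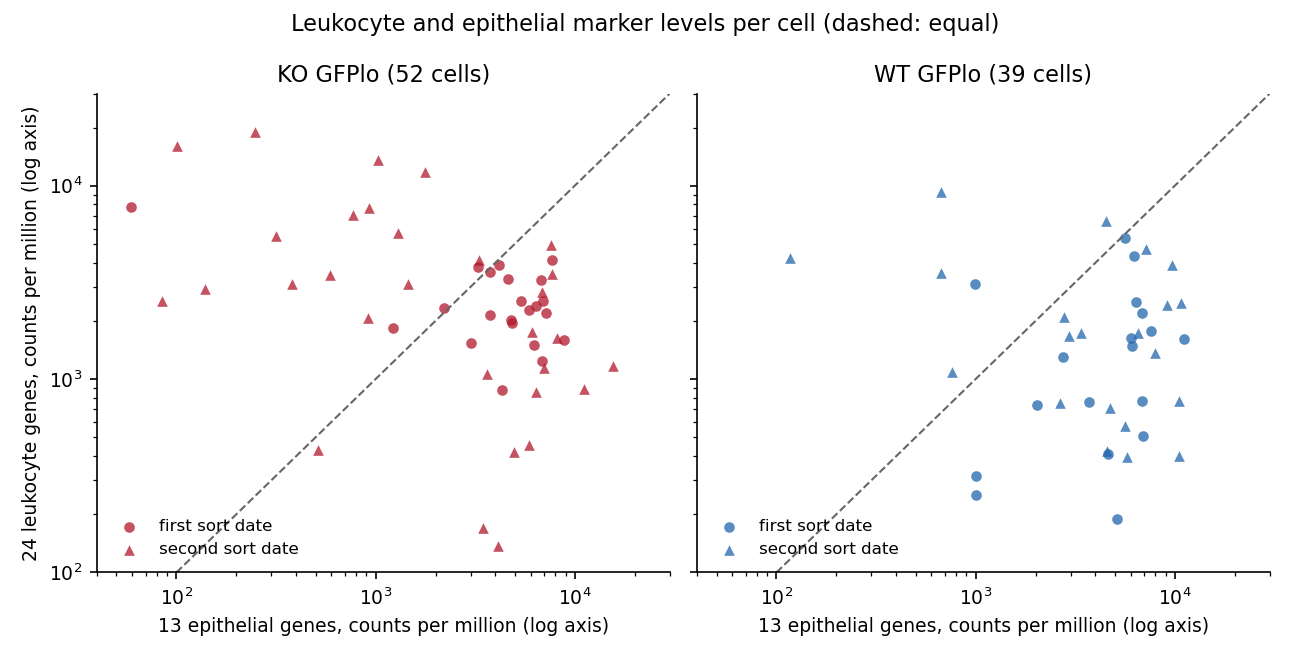
Summed level of 24 leukocyte genes (vertical axis, CPM, log scale) against 13 epithelial genes (horizontal axis, same unit, log scale), 1 point per cell, with KO GFPlo on the left and WT GFPlo on the right. Points above the dashed line of equality are leukocyte-marked, 19 of 52 KO cells and 6 of 39 WT cells.

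The 4 genes described first are the markers given with the groups. Bhmt encodes betaine-homocysteine methyltransferase, a liver and kidney enzyme that remakes methionine. Klk6 encodes a secreted serine protease of the kallikrein family, abundant in the nervous system. Reg3b encodes a secreted antibacterial lectin of gut and pancreas, and Gal3st2 a Golgi enzyme that adds sulfate to galactose on glycoproteins. Their promoters are shown because the 4 genes moved apart although all are organ genes. Sequences are from RefSeq on GRCm38.p6, 5′ to 3′ on the strand of the gene, with any TATAAA in capitals.
Bhmt: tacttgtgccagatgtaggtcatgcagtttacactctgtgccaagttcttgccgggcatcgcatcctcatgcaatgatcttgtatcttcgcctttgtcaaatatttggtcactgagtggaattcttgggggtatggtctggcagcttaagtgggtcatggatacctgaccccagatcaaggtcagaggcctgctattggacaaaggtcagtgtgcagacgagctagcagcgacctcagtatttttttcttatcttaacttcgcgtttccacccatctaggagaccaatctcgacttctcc
Klk6: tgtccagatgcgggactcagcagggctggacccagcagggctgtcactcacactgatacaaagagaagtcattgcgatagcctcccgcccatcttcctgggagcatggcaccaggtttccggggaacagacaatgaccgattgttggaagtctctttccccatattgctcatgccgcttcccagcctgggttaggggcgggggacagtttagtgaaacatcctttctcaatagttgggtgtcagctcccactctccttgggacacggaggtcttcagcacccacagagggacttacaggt
Reg3b: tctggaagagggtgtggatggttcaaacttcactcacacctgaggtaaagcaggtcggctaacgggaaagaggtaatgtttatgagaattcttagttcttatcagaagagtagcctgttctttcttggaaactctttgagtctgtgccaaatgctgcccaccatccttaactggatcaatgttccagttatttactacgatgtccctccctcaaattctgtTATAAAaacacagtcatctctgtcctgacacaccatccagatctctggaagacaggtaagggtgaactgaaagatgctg
Gal3st2: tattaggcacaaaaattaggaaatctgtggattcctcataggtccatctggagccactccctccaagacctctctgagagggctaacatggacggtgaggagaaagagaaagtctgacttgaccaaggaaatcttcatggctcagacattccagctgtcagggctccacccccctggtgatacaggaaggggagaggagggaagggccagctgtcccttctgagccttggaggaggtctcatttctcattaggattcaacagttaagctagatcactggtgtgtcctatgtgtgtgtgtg

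The windows lie at chr13:93637709-93638008 on the minus strand (Bhmt) and, on the plus strand, at chr7:43824294-43824593 (Klk6, which has 2 starts in the table), chr6:78370635-78370934 (Reg3b) and chr1:93861094-93861393 (Gal3st2). TATAAA was searched on both strands. It was found in the window of Reg3b, at -29 from the start, and in none of the other 3. CpG dinucleotides numbered 8, 8, 3 and 1 in the windows of Bhmt, Klk6, Reg3b and Gal3st2, with a median of 7 over 32851 RefSeq promoters of the same length. The motif was present in 13.6% of all these promoters and in 32.2% of the 363 organ antigens with a promoter in the table.

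Bhmt (chromosome 13, 93616675-93637961, minus strand, GRCm38) had 1 count in each of 6 KO GFPlo cells, 2 on the first date and 4 on the second. In WT GFPlo cells it was found in 7 cells, with 371, 73, 27 and 5 counts on the first date and 202, 47 and 23 on the second. No KO cell reached the lowest WT cell with counts. The level was 3.25 CPM in KO and 331 CPM in WT, a 102-fold lower level in KO (46.6 to 278). By date it was 2.95 CPM in KO against 437 in WT, and 3.42 CPM in KO against 232 in WT. One WT cell held 49.6% of the WT counts, and without pool 2 the log2 ratio was −5.75 instead of −6.56. Leaving out leukocyte-marked cells gave −7.40. In the 12 KO and 11 WT cells with umi primers, the primer kind with fewer cells, Bhmt had 1 count in KO and 0 in WT, the opposite direction on a single count.

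Klk6 (chromosome 7, 43824499-43832030, plus strand) had 1 count in 1 KO GFPlo cell of the second date. It was found in 11 WT GFPlo cells, with 32, 21, 14, 6 and 1 counts on the first date and 79, 33, 24, 13, 12 and 4 on the second. More WT cells held Klk6 than held either of the other genes that were lower. The level was 0.541 CPM in KO and 106 CPM in WT (195-fold lower, 34.7 to 7745). On the first date KO was at 0 against 68.0 CPM in WT, and on the second at 0.855 against 141 CPM. Without pool 11 the log2 ratio was −8.16 instead of −7.03.

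Reg3b (chromosome 6, 78370657-78373466, plus strand) had 0 counts in all 52 KO GFPlo cells. It was found in 7 WT GFPlo cells, with 70, 12, 2, 1 and 1 counts on the first date and 18 and 15 on the second. Against the 52.6 CPM of WT, the KO level was at least 32.4-fold lower, with KO set at 3 counts over the group. WT levels were 79.0 and 28.1 CPM on the first and second date. A single WT cell held 58.8% of the counts, and without pool 1 the log2 ratio was −5.97 instead of −7.61. Reg3b has near copies in the Reg3 family, and how the authors' counting split reads between them is not given in the sources used here.

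Gal3st2 (chromosome 1, 93861306-93876494, plus strand) ran the other way. It was found in 17 KO GFPlo cells, with 50, 24, 14, 2, 1, 1 and 1 counts on the first date and 21, 7, 6, 5, 3, 2, 1, 1, 1 and 1 on the second. In WT GFPlo it had 1 count, in 1 cell of the second date. The level was 76.3 CPM in KO and 0.442 CPM in WT, a ratio of 173 (30.5 to 6863), with 137 CPM in KO against 0 in WT on the first date and 41.1 CPM in KO against 0.853 in WT on the second. Leaving out pool 5 gave a log2 ratio of 5.98, leaving out pool 11 gave 8.22 and leaving out leukocyte-marked cells gave 8.01, instead of 6.85. The near-identical copies Gal3st2b and Gal3st2c were not analysed here, and reads of theirs may have been counted as Gal3st2. Of the relatives that were, Gal3st3 stood at 5.41 CPM in KO and 5.31 CPM in WT.

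**Figure D2:**
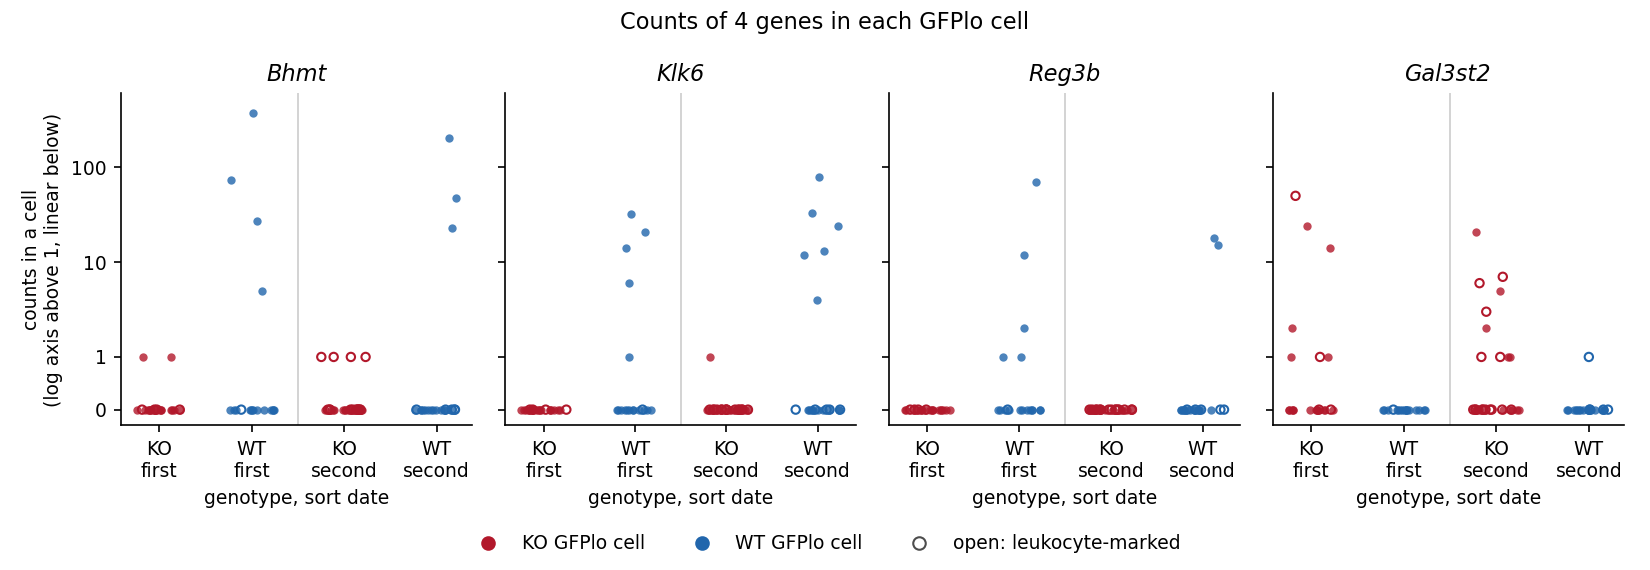
Counts of Bhmt, Klk6, Reg3b and Gal3st2 in each GFPlo cell (vertical axis, log scale above 1 and linear below), 1 point per cell, by genotype and sort date with KO left of WT. KO cells stay at 0 or 1 count for the first 3 genes, whereas WT cells reach 371, 79 and 70, and for Gal3st2 KO cells reach 50 and WT cells 1.

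Detection was also compared at equal depth, because a deeper cell shows more genes. Each cell with at least 10000 counts was thinned to that number, which left out 4 of 52 KO cells and 7 of 39 WT cells. Bhmt was then seen in 1 of 48 KO cells (2.08%) and 6 of 32 WT cells (18.8%), against 11.5% and 17.9% of all cells unthinned. Klk6 was seen in 0 of 48 KO cells and in 10 of 32 WT cells (31.3%). With 3 counts as the limit that a count of 0 allows, up to 6.25% of KO cells could show a Klk6 count at this depth, which is no limit on cells that express the gene. Reg3b was seen in 0 of 48 KO cells, with the same limit, and in 4 of 32 WT cells (12.5%). Gal3st2 was seen in 12 of 48 KO cells (25%) and 1 of 32 WT cells (3.13%). The order of the genotypes was the same on each date for each of the 4 genes. They were chosen with earlier results of these cells known, so that order is not a separate result. Of the KO cells, 7 of 52 held any count of Bhmt, Klk6 or Reg3b and none held counts of more than 1 of them. Of the WT cells, 16 of 39 held at least 1, of which 5 held 2 and 2 held all 3.

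The single counts were also listed by leukocyte-marked class and by pool. Bhmt was found in 4 of the 19 leukocyte-marked KO cells and 2 of the other 33, at median depths of 20771 and 23963 counts, and each had 1 count. All 6 of these cells, the 1 KO cell with Klk6 and the 1 WT cell with Gal3st2 came from pools in which a GFPlo cell of the other genotype had at least 5 counts of the same gene. Such pools held 36 of the 52 KO cells for Bhmt and 21 of the 39 WT cells for Gal3st2. The source of these single counts was not tested. Gal3st2 was found in 7 of the 19 leukocyte-marked KO cells, with up to 50 counts, and in 10 of the other 33.

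Aire itself (chromosome 10, 78030022-78043610, minus strand) was transcribed in both groups. Its level was 316 CPM in KO GFPlo and 244 CPM in WT GFPlo, a ratio of 1.29 (1.15 to 1.46), and 67.3% of KO cells and 66.7% of WT cells had a count. By date it was 622 CPM in KO against 465 in WT, and 138 CPM in KO against 38.4 in WT. The part of Aire that is deleted is not given in the sources used here, and Aire counts in KO cells therefore do not check the genotype labels. The ratio was 0.981 when pool 5 was left out, 2.01 when pool 6 was, and 1.62 when leukocyte-marked cells were. The sorted GFP signal had medians of 8337 in KO against 5960 in WT on the first date and 2515 against 2290 on the second, in arbitrary units.

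Fezf2, a transcription factor that drives another set of organ antigens in these cells, stood at 454 CPM in KO GFPlo and 355 CPM in WT GFPlo (ratio 1.28, 1.16 to 1.41). By date it was 922 CPM in KO against 645 in WT, and 183 CPM in KO against 85.3 in WT. Both regulators thus had lower levels on the second date than on the first in both genotypes. Ins2, the insulin gene long cited as dependent on Aire, had 0 counts in KO and 7 counts in WT, in 3 cells. At that depth a difference of Ins2 could be stated only as at least 1.91-fold lower in KO.

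The organ antigens were taken as 13 lists by organ, 463 genes in the table, of which 223 had at least 10 counts in the pair. These lists, like the 4 genes, were drawn up with earlier results of these cells known. Of the 223, 153 had a lower level in KO GFPlo than in WT GFPlo (68.6%), while 51.5% of all 13882 genes with as many counts did. The median log2 ratio was −1.58 over the 223 antigens and −0.05 over all 13882 genes. Of the 185 antigens with at least 20 counts, 81 were at least 4-fold lower in KO (43.8%, and 14.1% of all genes) and 19 at least 4-fold higher (10.3%, and 10.7% of all genes). An antigen that passed the count limit through 1 group only could not sit near 0, so the excess of lower over higher, and not the spread, is what the list shows against all genes. Each count of lower members in the lists below stands against the same 51.5% of all genes. A member that passed the limit through WT alone could only be lower in KO.

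The shift differed between the sort dates. On the first date 135 of 177 antigens were lower in KO (52.2% of all genes were), with a median log2 ratio of −3.02. On the second date 74 of 144 were lower (48.4% of all genes were), with a median of −0.10. Antigens at least 2-fold lower in KO on both dates numbered 30 of the 105 with enough counts on each (28.6%, and 10% of all genes), and those at least 2-fold higher on both numbered 6 (8.77% of all genes). Of the KO cells of the second date 15 of 30 were leukocyte-marked. In leukocyte-marked KO cells the antigens without Csn2 stood at 3726 CPM, against 11732 CPM in the other KO cells. In WT these values were 1659 and 15579 CPM. Without leukocyte-marked cells the medians by date were −3.21 and −0.40, over antigens with enough counts in the remaining cells. The part of these cells in the difference between dates was not tested. Over the same 223 antigens the median was −1.24 once leukocyte-marked cells were left out. Without pool 1 it was −0.96.

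**Figure D3:**
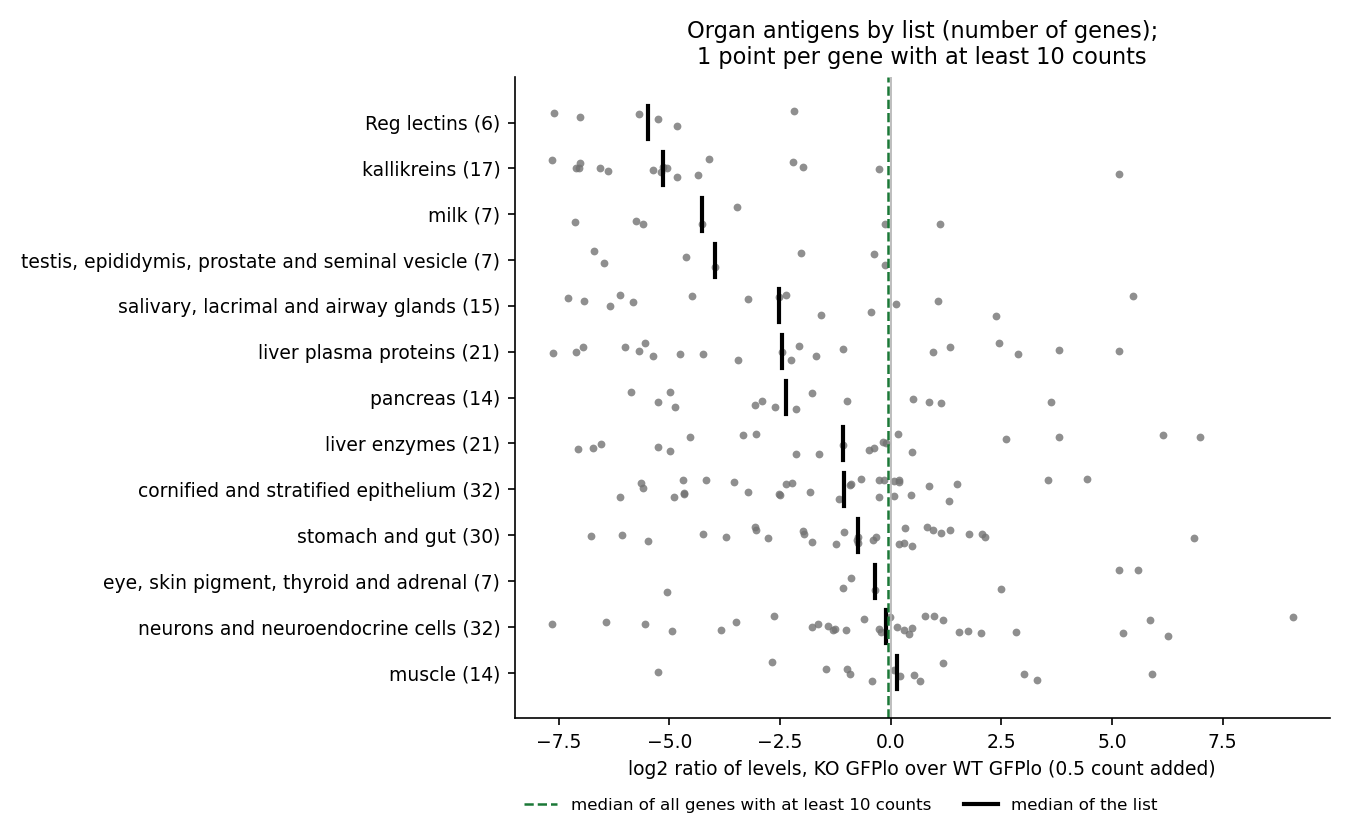
Log2 ratio of levels, KO GFPlo over WT GFPlo (horizontal axis), for each organ antigen with at least 10 counts in the pair, 1 point per gene, by list (vertical axis, number of genes in parentheses). Black bars are list medians and the dashed line is the median of all genes, −0.05, and the Reg lectins, kallikreins and milk genes sit lowest, with medians of −5.47, −5.13 and −4.27.

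At equal depth the number of organ antigens seen per cell had a median of 19 in 48 KO GFPlo cells (6 to 47) and 28.5 in 32 WT GFPlo cells (5 to 54). On the first date the medians were 20 in KO and 32 in WT. On the second they were 15.5 in KO and 19.5 in WT. The ranges of the 2 genotypes overlapped on both dates. Without leukocyte-marked cells the medians were 20 in KO and 32 in WT on the first date, and 24 in KO and 20 in WT on the second. The order of the second date without these cells varied with the depth and the summary: the medians were 16 in KO and 19 in WT after thinning to 5000 counts and 32 in both after thinning to 20000, and the means at 10000 counts were 24.4 in KO and 25.4 in WT. All genes seen per cell had a median of 2450 in KO and 2728.5 in WT.

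**Figure D4:**
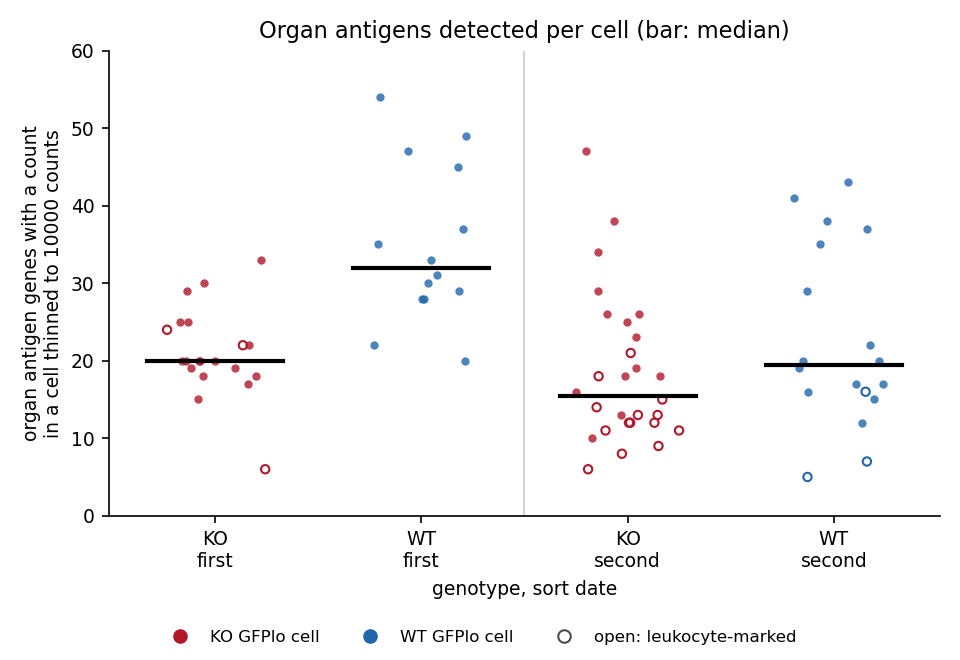
Organ antigen genes seen in each GFPlo cell after thinning to 10000 counts (vertical axis, number of genes), by genotype and sort date with KO left of WT, 1 point per cell, bars at the median and open points for leukocyte-marked cells. The medians are 20 and 32 on the first date and 15.5 and 19.5 on the second.

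Liver antigens were found in fewer KO GFPlo cells than WT GFPlo cells. Of the plasma proteins, 15 of 21 were lower in KO, and at equal depth a member was seen in 35.4% of KO cells and 84.4% of WT cells (40% against 92.9% on the first date, 32.1% against 77.8% on the second). Their summed level was 305 CPM in KO and 451 CPM in WT, with ratios of 0.168 and 1.15 on the first and second date. The fibrinogen chain gene Fgg had 0 counts in KO and 120 in WT (at least 32.7-fold lower), and the complement-activating lectin gene Mbl2 had 0 and 84 (at least 22.9-fold lower), both in WT cells of the first date only. The acute-phase gene Saa1 ran the other way, with 115 CPM in KO and 15.5 CPM in WT, all of its KO counts lying in 6 cells of the second date and 54.9% in 1 of them. Without pool 4 the log2 ratios of Fgg and Mbl2 were −6.56 and −4.31 instead of −7.62 and −7.11, and without pool 12 that of Saa1 was 1.75 instead of 2.88. Without pool 12 the summed ratio of the plasma proteins was 0.387 instead of 0.677, and without leukocyte-marked cells it was 0.936 (0.840 to 1.04). In cells with umi primers Saa1 had 1 count in KO and 14 in WT.

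Liver enzymes stood at 348 CPM in KO and 801 CPM in WT (ratio 0.435, 0.397 to 0.476), with 15 of 21 lower in KO. By date the ratios were 0.348 and 0.769, with 15 of 18 and 5 of 12 members lower (52.2% and 48.4% of all genes were). The ratio was 2.08 in the 12 KO and 11 WT cells with umi primers. Bhmt, described above, and the urea-cycle enzyme Arg1 took much of the WT sum. Arg1 had 1 count in KO and 195 in WT, 92.3% of them in 1 cell, and without pool 4 its log2 ratio was −3.16 instead of −6.73. Enzymes seen in many cells had closer levels: the histidine-degrading enzymes Hal and Uroc1 had levels of 105 and 26.5 CPM in KO and 137 and 28.8 CPM in WT. The interval of the Uroc1 ratio of 0.923 was 0.623 to 1.36. The flavin monooxygenase Fmo5 was found in 14 KO cells and 1 WT cell, at 47.1 CPM in KO and 0.442 CPM in WT (ratio 106, 18.6 to 4253). Without pool 12 its log2 ratio was 5.47 instead of 6.16.

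Pancreas genes stood at 219 CPM in KO and 556 CPM in WT (ratio 0.395, 0.352 to 0.442), with ratios of 0.368 and 0.389 by date. In the 12 KO and 11 WT cells with umi primers the ratio was 2.57. Gp2, the main glycoprotein of zymogen granules, stood at 22.7 CPM in KO and 173 CPM in WT (7.63-fold lower, 5.54 to 10.8). The granule lectin gene Zg16 had 0 counts in KO and 23 in WT (at least 6.26-fold lower). Without pool 12 the log2 ratio of Gp2 was −2.0, and −3.85 when pool 10 was left out, instead of −2.92. For Zg16 it was −4.52 without either pool 11 or pool 12, instead of −5.26.

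The Reg lectins, secreted by gut and pancreas, were lower in KO in 6 of 6 members with enough counts (51.5% of all genes were). They summed to 75.8 CPM in KO and 464 CPM in WT (ratio 0.163, 0.136 to 0.195), and at equal depth a member was seen in 27.1% of KO cells and 59.4% of WT cells. In KO cells every Reg count was of Reg3g, an antibacterial lectin like Reg3b, with 140 counts in 19 KO cells and 777 counts in 22 WT cells. The other members passed the count limit through WT cells alone and could only be lower in KO. Reg3g stood at 76.7 CPM in KO against 612 in WT on the first date, and at 75.3 CPM in KO against 94.7 in WT on the second. Reg4 and Reg3a had 0 counts in KO and 79 and 31 in WT (at least 21.5-fold and 8.44-fold lower). Without pool 1 the summed ratio was 0.265, and without pool 11 the log2 ratio of Reg4 was −4.32 instead of −7.02. That of Reg3a was −2.91 instead of −5.69 without pool 1.

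Stomach and gut genes as a list did not have a lower summed level in KO GFPlo cells: 1168 CPM in KO and 1031 CPM in WT (ratio 1.13, 1.07 to 1.2). Without leukocyte-marked cells the ratio was 0.931. The bile acid-binding gene Fabp6 stood at 400 CPM in KO and 289 CPM in WT, with 542 of its 739 KO counts in leukocyte-marked cells, and its log2 ratio without them was −0.86 instead of 0.47. Fabp6 also turned on single pools, with −1.66 when pool 5 was left out and 3.62 when pool 1 was. The brush-border cadherin gene Cdhr2 was seen in 24 KO cells and 14 WT cells, at 75.8 CPM in KO and 18.1 CPM in WT (ratio 4.18, 2.93 to 6.07). The intestinal phosphatase gene Alpi had 0 counts in KO and 66 in WT, in 4 cells of the first date. Without pool 12 the log2 ratio of Cdhr2 was 1.46 instead of 2.05, and without pool 1 that of Alpi was −3.44 instead of −6.76.

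Kallikreins are secreted serine proteases of salivary gland, skin and brain that lie in 1 cluster on chromosome 7. They were lower in KO GFPlo cells in 16 of 17 members over both dates (51.5% of all genes were). By date 9 of 10 members were lower on the first (52.2% of all genes) and 11 of 14 on the second (48.4%). They summed to 115 CPM in KO and 697 CPM in WT (ratio 0.165, 0.143 to 0.191), with ratios of 0.134 and 0.156 by date and 0.181 without leukocyte-marked cells. At equal depth a member was seen in 47.9% of KO cells and 75% of WT cells. The glandular Klk1 had 1 count in KO and 253 in WT (207-fold lower, 36.8 to 8197), with 15 and 4 counts in WT cells of the first date and 208, 15, 3, 3, 3 and 2 in those of the second. Without pool 11 its log2 ratio was −3.91, without pool 10 −8.57 and without leukocyte-marked cells −8.14, instead of −7.11. Klk7, the skin-shedding protease, differed least: 148 counts in 28 KO cells and 218 in 21 WT cells gave a ratio of 0.831 (0.670 to 1.03), and without pool 9 its log2 ratio was 0.76 instead of −0.27. The Klk1b genes are near-identical copies, so the split between them, and with it the count of members lower in KO, is uncertain. Klk1b26 and Klk1b22 had 1 and 0 counts in KO and 242 and 122 in WT. Without pool 11 their log2 ratios were −4.21 and −1.89 instead of −7.05 and −7.65, and without pool 6 that of Klk1b26 was −8.76.

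Genes of salivary, lacrimal and airway glands stood at 316 CPM in KO and 549 CPM in WT (ratio 0.576, 0.521 to 0.636). By date the ratios were 0.487 and 0.788, with 8 of 11 and 4 of 8 members lower (52.2% and 48.4% of all genes were). Spt1, a salivary secretory protein gene, had 0 counts in KO and 95 in WT, in 7 cells (at least 25.9-fold lower). Genes seen in many cells moved less: the peroxidase gene Lpo stood at 122 CPM in KO and 166 CPM in WT, and the surfactant gene Sftpd at 76.3 CPM in KO and 69.9 CPM in WT (ratio 1.09, 0.864 to 1.38), with a log2 ratio of −0.26 instead of 0.13 once leukocyte-marked cells were left out. The iron-binding lipocalin gene Lcn2 had 54 counts in 7 KO cells of the second date and 1 count in WT. Without pool 11 and pool 12 in turn, the log2 ratio of Spt1 was −6.34 and −6.24 instead of −7.29, and that of Lcn2 was 6.45 and 4.21 instead of 5.47.

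Genes of cornified and stratified epithelium stood at 2602 CPM in KO and 4531 CPM in WT (ratio 0.574, 0.555 to 0.594), with 22 of 32 lower in KO. By date the ratios were 0.389 and 0.623, with 24 of 27 and 12 of 24 members lower (52.2% and 48.4% of all genes were). Leaving out leukocyte-marked cells gave a ratio of 0.791. Krt17 stood at 717 CPM in KO and 1343 CPM in WT, and was lower in KO on both dates (615 CPM in KO against 970 in WT, and 777 CPM in KO against 1690 in WT). Krtdap, a secreted keratinocyte protein gene, stood at 414 CPM in KO and 665 CPM in WT, in 7 KO cells and 15 WT cells, and without pool 9 its log2 ratio was 0.55 and without pool 12 −2.01, instead of −0.68. In WT a single cell held 93.5% of the 1124 counts of Krt10, whose log2 ratio was −3.22, and 0.68 if pool 3 was left out. In cells with umi primers Krt10 had 2 counts in KO and 0 in WT. Some epithelial keratins of the medulla itself were lower as well: Krt5 stood at 302 CPM in KO and 529 CPM in WT, and Krt14 at 136 CPM in KO and 372 CPM in WT. Without leukocyte-marked cells the log2 ratio of Krt5 was −0.37 instead of −0.81 and that of Krt14 −1.17 instead of −1.45.

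Milk genes split. The casein gene Csn2, often cited as dependent on Aire, stood at 1652 CPM in KO and 769 CPM in WT (ratio 2.15, 2.02 to 2.28). It was found in 88.5% of KO cells and 84.6% of WT cells. Its level was higher in KO on both dates (2547 CPM in KO against 1355 in WT, and 1132 CPM in KO against 225 in WT). A single KO cell of the second date held 902 counts, and the next on that date 127. At equal depth Csn2 was seen in 70.8% of KO cells and 71.9% of WT cells (95% against 92.9% on the first date, 53.6% against 55.6% on the second). Without Csn2, milk genes stood at 14.1 CPM in KO and 352 CPM in WT (ratio 0.0400, 0.0260 to 0.0591), with 6 of 6 lower in KO (51.5% of all genes were). In this sum 1 WT cell held 56.2% of the WT counts and 1 KO cell 61.5% of the KO counts. At equal depth a member other than Csn2 was seen in 12.5% of KO cells (4.73 to 25.2) and 25% of WT cells (11.5 to 43.4). Leaving out leukocyte-marked cells gave the sum without Csn2 a ratio of 0.0670. Csn1s2a, a neighbour of Csn2 in the casein cluster of chromosome 5, had 1 count in KO. In WT it had 80, 68, 24, 15, 4, 3, 2, 1 and 1 counts on the first date and 39, 11, 8 and 3 on the second, so that KO was 212-fold lower (37.7 to 8391). The cell with 80 counts was leukocyte-marked, and without such cells the log2 ratio was −6.07. Without pool 2 the log2 ratio was −6.55 and without pool 4 −8.25, instead of −7.14. Csn1s1 had 3, 2 and 1 counts in KO cells and 397, 21, 5, 4 and 2 in WT cells, all on the first date. Without pool 4 the log2 ratio of Csn1s1 was −2.35 and without pool 6 −6.73, instead of −5.75.

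Neuronal and muscle genes showed no common direction. Neuronal genes stood at 2496 CPM in KO and 2926 CPM in WT, with 17 of 32 lower in KO and ratios of 0.591 and 2.16 by date. The ratio over both dates was 0.853, and 1.01 when leukocyte-marked cells were left out. The synaptic vesicle gene Syt1 was seen in 49 KO cells and 36 WT cells, at 833 CPM in KO and 1257 CPM in WT, and without pool 5 its log2 ratio was 0.55 instead of −0.59. The neuropeptide gene Tac1 had 1 count in KO and 370 in WT, in 6 cells of the first date (302-fold lower, 53.9 to 11973). The neurofilament gene Nefl had 221 counts in KO, 96.8% of them in 1 cell, and 0 in WT, and its log2 ratio was 4.34 instead of 9.08 without pool 11. Muscle genes stood at 495 CPM in KO and 446 CPM in WT, with 6 of 14 lower in KO. The giant sarcomere gene Ttn was seen in 15 KO cells and 4 WT cells, at 32.5 CPM in KO and 3.10 CPM in WT (ratio 10.5, 4.79 to 27.2), and leaving out leukocyte-marked cells gave a log2 ratio of 5.47 instead of 3.30. Desmin, Des, stood at 99.1 CPM in KO and 196 CPM in WT.

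Genes of male reproductive organs, testis and prostate among them, were lower in KO in 7 of 7 members with enough counts (51.5% of all genes were). They summed to 40.1 CPM in KO and 200.4 CPM in WT (ratio 0.200, 0.154 to 0.256). Ratios were 0.136 and 0.269 by date. The sperm fatty acid-binding gene Fabp9 had 1 count in KO and 163 in WT, in 8 cells of both dates (133-fold lower, 23.6 to 5293). Its log2 ratio of −6.48 became −7.95 when pool 4 was left out and −5.80 when pool 11 was. Sbpl had 0 counts in KO and 63 in WT, in 8 cells (at least 17.2-fold lower), and without pool 2 its log2 ratio was −4.60 instead of −6.70. The thyroglobulin gene Tg was sparse, with 15 counts in KO and 35 in WT, and without pool 4 its log2 ratio was −1.56 instead of −0.90.

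**Figure D5:**
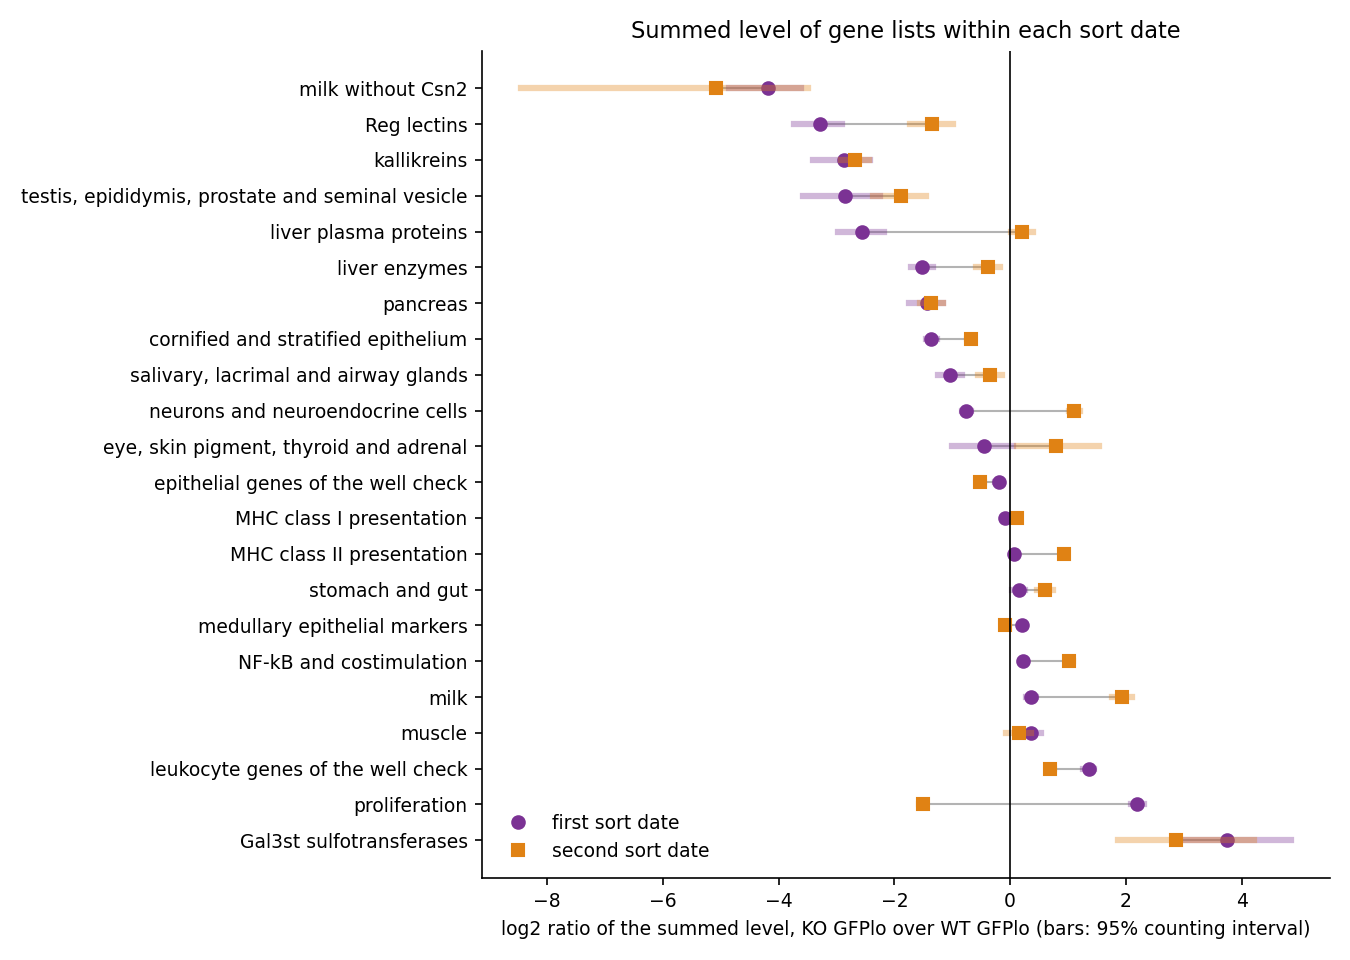
Log2 ratio of the summed level of each gene list, KO GFPlo over WT GFPlo (horizontal axis), on the first sort date (circles) and the second (squares), with 95% counting intervals as bars. Milk genes without Csn2, Reg lectins, kallikreins, testis and prostate genes and pancreas genes lie left of 0 on both dates, whereas liver plasma proteins (ratios 0.168 and 1.15), neuronal genes (0.591 and 2.16) and proliferation genes (4.59 and 0.350) change side.

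The same organ antigens in GFPhi cells had a median log2 ratio of −3.50, with 199 of 262 lower in KO GFPhi than in WT GFPhi. Of all 15033 genes with as many counts in GFPhi 53.9% were lower, with a median log2 ratio of −0.13. Those cells are other cells of the same genotypes and share no cell with the GFPlo groups. Bhmt and Klk6 were nearly absent from both GFPhi groups. Bhmt stood at 1.33 CPM in KO GFPhi and 1.15 CPM in WT GFPhi, and Klk6 at 0.332 CPM in KO GFPhi and 1.44 CPM in WT GFPhi. Reg3b had 0 counts in KO GFPhi and stood at 7.50 CPM in WT GFPhi. Gal3st2 stood at 162 CPM in KO GFPhi and 22.2 CPM in WT GFPhi, so it was higher in KO in both gates. No difference between the gates was tested.

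The antigens that the field most often names as targets of Aire stood at 1875 CPM in KO GFPlo and 1650 CPM in WT GFPlo, a sum that Csn2 leads, although 8 of 10 members were lower in KO. Antigens linked to Fezf2 or cited as independent of Aire stood at 400 CPM in KO and 897 CPM in WT (ratio 0.445, 0.409 to 0.485). That list had ratios of 0.219 and 1.52 by date, and 0.913 without pool 3. It was 0.589 without leukocyte-marked cells and 2.49 in the cells with umi primers. Of the promoters in the table, TATAAA was found in 23 of 67 antigens at least 4-fold lower in KO (34.3%), in 1 of 12 at least 4-fold higher (8.33%) and in 20 of 60 between (33.3%). These shares are a description, and a match is not a binding site.

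Ranked over all genes by whichever of the by-date log2 ratios was nearer to 0, the 12 genes lowest in KO GFPlo among 1846 eligible were Klk6, Csn1s2a, Clec2l, Bhmt, Hlcs, Osbpl7, Chaf1b, Fkbp11, Dgcr6, Rrp8, Rfx2 and Dpysl5. The ranking used the direction on both dates, so that direction is not a result. Besides the organ genes of the list, it holds genes with general roles: Hlcs, the enzyme that attaches biotin to carboxylases, Chaf1b, a subunit of a histone chaperone, and Rrp8, a factor of ribosomal RNA processing. Clec2l had 0 counts in KO and 58, 4 and 1 in WT cells of the first date and 42, 34 and 1 in those of the second. Hlcs had 0 counts in KO and 20, 20, 18, 5, 1, 1 and 1 in WT on the first date and 21, 5 and 3 on the second. Neither gene was found in a KO cell, while the WT counts lay in 6 and 10 cells. Leaving out leukocyte-marked cells gave Hlcs a log2 ratio of −6.39 instead of −7.29. Fkbp11, a folding enzyme of the secretory pathway, had 1 count in KO and 285 in WT, 134 of them in a leukocyte-marked cell, and its log2 ratio was −5.83 without such cells. Without pool 5 it was −8.85, without pool 4 −6.59 and without pool 12 −6.42, instead of −7.28. Clec2l had a log2 ratio of −7.16 instead of −7.84 without pool 4. In GFPhi cells Hlcs had 251 counts in KO and 33 in WT, and Clec2l had 0 in both.

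The 12 highest among 2079 eligible were Fbxl18, Thy1, Arl4a, Inpp5k, Hsdl1, Mcoln1, Rmst, Vwc2l, Hrsp12, Rasal3, Med22 and Spsb1. Of these, 6 had 0 counts in WT GFPlo, 5 had 1 count and Thy1 had 3. Vwc2l was the most widely found, with 6, 5, 4, 4, 3, 2, 2, 1, 1 and 1 counts in KO cells of the first date and 4, 4, 3, 3, 3, 2, 1 and 1 in those of the second, and 0 in WT (at least 20.4-fold higher in KO). Its counts are low in each cell, yet 18 of 52 KO cells hold it and 0 of 39 WT cells. Thy1, a surface glycoprotein of thymocytes and neurons, had 54, 19, 9, 1, 1, 1, 1 and 1 counts in KO cells of the first date and 82, 38, 21, 13, 8, 2 and 1 in those of the second, and 1 count in each of 3 WT cells (ratio 103, 34.8 to 502). Of the 252 KO counts of Thy1, 127 lay in leukocyte-marked cells. For Rasal3, a Ras regulator of leukocytes, 81 of 91 counts and for Inpp5k, an inositol phosphatase, 65 of 70 counts lay in leukocyte-marked cells, whereas for Rmst, a long noncoding RNA of neurons, 2 of 95 did. Without these cells the log2 ratios of Rasal3, Inpp5k and Vwc2l were 3.64, 4.29 and 5.96, instead of 6.22, 7.43 and 6.95. Mcoln1, a lysosomal cation channel gene, had 67 counts in KO and 0 in WT in GFPlo, and 0 in KO and 11 in WT in GFPhi. Leaving out pool 5 gave log2 ratios of 6.46 for Mcoln1 (7.37 over all pools) and 7.57 for Rmst (6.28), pool 11 gave 5.26 for Rmst, and pool 6 gave 7.57 for Rasal3 (6.22).

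Genes of MHC class II presentation were higher in KO GFPlo cells in 14 of 15 members, at 28114 CPM in KO and 20518 CPM in WT (ratio 1.37, 1.35 to 1.39). Members lower in KO numbered 1 of 15 (51.5% of all genes were lower). By date the ratios were 1.05 and 1.90, with 6 of 15 and 1 of 15 members lower (52.2% and 48.4% of all genes were). B cells and dendritic cells carry the same genes. Without leukocyte-marked cells the ratio was 1.11, with 3 of 15 members lower (51.6% of all genes were). H2-Aa, an MHC class II chain, stood at 5068 CPM in KO and 3565 CPM in WT. Ifi30, the lysosomal reductase that opens antigens for loading, stood at 788 CPM in KO and 252 CPM in WT. H2-Oa, a brake on peptide loading, was the member lower over both dates together, at 296 CPM in KO and 399 CPM in WT. The surface MHC class II signal of the sort had medians of 62546 in KO and 57983.5 in WT on the first date and 52754 in KO and 58032 in WT on the second. MHC class I genes stood at 17502 CPM in KO and 17282 CPM in WT (ratio 1.01), with a ratio of 0.984 after TMM scaling and 0.884 when leukocyte-marked cells were left out.

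NF-kB and costimulation genes, the pathway that matures medullary cells, were higher in KO in 17 of 22 members and in 10 of 11 pools, at 6021 CPM in KO and 4374 CPM in WT (ratio 1.38, 1.34 to 1.41). Members lower in KO numbered 5 of 22 (51.5% of all genes were lower). By date the ratios were 1.16 and 2.04, with 8 of 22 and 5 of 21 members lower (52.2% and 48.4% of all genes were). Without leukocyte-marked cells the ratio was 1.19, with 8 of 22 lower (51.6% of all genes were). The adhesion gene Icam1 stood at 485 CPM in KO and 242 CPM in WT, and was higher in KO on both dates (671 CPM in KO against 346 in WT, and 377 CPM in KO against 147 in WT). Icosl, a costimulatory ligand gene, stood at 1000.4 CPM in KO and 638 CPM in WT. The subunit gene Rela stood at 24.9 CPM in KO and 77.0 CPM in WT. Medullary epithelial markers as a list stood at 7164 CPM in KO and 7021 CPM in WT (ratio 1.02, and 0.992 with TMM scaling), with Epcam at 286 CPM in KO and 574 CPM in WT.

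Chemokines differed by gene. Ccl25, which draws thymocytes, stood at 72.0 CPM in KO and 1307 CPM in WT (18.2-fold lower, 15.3 to 21.8), in 16 KO cells and 18 WT cells, with 134 CPM in KO against 2571 in WT on the first date and 35.9 CPM in KO against 134 in WT on the second. Most WT counts of Ccl25 lay in 1 cell, 80.8%, and without pool 4 its log2 ratio was −2.47 instead of −4.18. Cxcl12 had 1 count in KO and 97 in 11 WT cells, and without pool 12 its log2 ratio was −7.18 instead of −5.73. Leaving out leukocyte-marked cells gave Cxcl12 −6.59, and in cells with umi primers it had 1 count in KO and 0 in WT. Ccl19 stood at 730 CPM in KO and 503 CPM in WT. Ccl22 stood at 934 CPM in KO and 141 CPM in WT, but 1638 of its 1726 KO counts lay in leukocyte-marked cells, and without them its log2 ratio was −0.996 instead of 2.73. Without pool 11 it was 5.42.

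Other cell types and states were as follows. Leukocyte genes stood at 4537 CPM in KO and 2306 CPM in WT, and were higher in KO in 10 of 11 pools. Of single genes, the antibody joining chain Igj stood at 169 CPM in KO and 4032 CPM in WT, and the myeloid adaptor Tyrobp at 135 CPM in KO and 8.85 CPM in WT. Their log2 ratios were −4.57 and 3.90, with −2.31 and 2.82 when pool 12 was left out and −6.36 and 4.57 when pool 11 was. When leukocyte-marked cells were left out they were −2.18 and −1.57. Summed fibroblast and endothelial markers had a ratio of 1.69, thymocyte markers 1.82 and tuft cell markers 1.87. Without leukocyte-marked cells these ratios were 1.36, 1.05 and 1.56. The sums were higher in KO, yet 8 of 14, 9 of 15 and 9 of 16 members were lower (51.5% of all genes were). Cortical epithelial markers had a ratio of 0.534, and 0.863 without pool 4. Red cell markers had 1 count in KO and 44 in WT. Proliferation genes had ratios of 4.59 and 0.350 by date, and of 1.04 without pool 11 against 0.676 over both dates. Leaving out leukocyte-marked cells, they had a ratio of 1.29 (1.22 to 1.37). Interferon-stimulated genes stood at 2492 CPM in KO and 3325 CPM in WT (ratio 0.749) and ribosomal protein genes at a ratio of 1.19. The part of these cells in the differences between KO and WT GFPlo was not tested beyond the values given without them.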

How the data were processed

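The authors deposited whole-number counts per gene and cell, not normalized, for 38406 genes, and per the file headers a second table gives flow cytometer intensity in arbitrary units, sort date, pool and primer of each well. The submitters' processing notes name HTSeq, TopHat, SAMtools 0.1.19, Picard 1.79 and the build mm10, and give these no role or order. Whether identifiers were collapsed is not given in the sources used here, so counts were treated as tags, and intervals are too narrow if they were not. All 91 GFPlo cells entered, unfiltered and without a doublet caller, and 0 pairs of cells had identical counts. Mitochondrial genes had 0 counts and could not serve as a sign of RNA quality.

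Counts were summed per group. Levels carry exact Poisson, ratios exact conditional binomial (Clopper-Pearson) and shares exact binomial 95% intervals. For log2 ratios 0.5 count was added to both sums. Against a group at 0, a fold was set with 3 counts over that group. No label names an animal and the replicate numbers only name cells, so no test was planned or run. TMM factors from edgeR 4.0.16 in R 4.3.3 gave another scaling. The rest was done with scipy 1.17.1, pandas 2.3.3 and numpy 2.4.6 in Python 3.11.15, with figures from matplotlib 3.10.9, and was tested on simulated data. Cells were thinned without replacement to 10000 counts.

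The members, the 34 gene lists (890 of 899 symbols in the table) and the rules were chosen with earlier results of these data known. A list member was counted with at least 10 counts in the pair, and a 4-fold difference with at least 20. The genes named were the 4 markers, Aire, Fezf2, Ins2, Csn2, H2-Aa, Epcam, Krt5, Krt14 and Krt8, the 12 highest and 12 lowest of all genes, and members of each list that were abundant (up to 4) or had the lowest or highest ratios (up to 2 each way). Ranked genes had at least 20 counts, the same direction on both dates, at least 3 cells with counts per date in the higher group and at most 50% of its counts in 1 cell. Spike-ins, ribosomal protein genes, pseudogenes and gene models were not ranked. Hlcs, Clec2l, Vwc2l, Thy1, Fkbp11, Rasal3, Inpp5k, Rmst and Mcoln1 were singled out among the ranked genes after their values were seen. A gene that the rule names is not reported here. Gene positions are from GENCODE M21 on GRCm38, and promoters from RefSeq on GRCm38.p6. Alternatives were each date, primer kind and pool, the leukocyte-marked or shallow cells left out, per-cell means, TMM, and other count limits and depths.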

Additional observations from a re-analysis of the deposited data

Results flagged for a closer look

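For 13 of 44 genes and lists compared, the KO over WT ratio lay on opposite sides of 1 in GFPlo and GFPhi cells, with both 95% counting intervals clear of 1. The difference was not tested, and each group is 1 sample. Among single genes, the medullary regulator Fezf2 had a ratio of 1.28 in GFPlo and 0.620 in GFPhi. The epithelial surface gene Epcam had 0.498 in GFPlo and 1.21 in GFPhi. Keratins went the same way, with 0.569 in GFPlo and 4.88 in GFPhi for Krt5, 0.365 in GFPlo and 1.8 in GFPhi for Krt14, and 0.666 in GFPlo and 1.51 in GFPhi for Krt8. Among lists, the antigens named as targets of Aire had 1.14 in GFPlo and 0.645 in GFPhi, and the Fezf2-linked antigens 0.445 in GFPlo and 1.51 in GFPhi. These are ratios of sums, in which Csn2 and Krt10 had the most GFPlo counts of the first and second list. Of the members, 8 of 10 targets of Aire were lower in KO GFPlo and 10 of 11 in KO GFPhi. For the Fezf2-linked antigens these were 6 of 11 and 8 of 9 (51.5% and 53.9% of all genes were lower). Stomach and gut genes had 1.13 in GFPlo and 0.911 in GFPhi, and muscle genes 1.11 in GFPlo and 0.850 in GFPhi. Interferon-stimulated genes had 0.749 in GFPlo and 1.03 in GFPhi. Cortical epithelial markers had 0.534 in GFPlo and 1.35 in GFPhi, fibroblast and endothelial markers 1.69 in GFPlo and 0.522 in GFPhi, and red cell markers 0.0278 in GFPlo and 1.59 in GFPhi. Among GFPlo cells 19 of 52 KO and 6 of 39 WT cells were leukocyte-marked, and among GFPhi cells 4 of 48 KO and 8 of 61 WT cells. They held 43.5% of KO and 18.1% of WT counts in GFPlo, and 6.12% of KO and 28.1% of WT counts in GFPhi. Their part in these ratios was not tested.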

How the results depend on the processing

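No paired analysis was possible because the replicate numbers only name cells and no animal is given. Pools and dates hold cells of both genotypes and were compared by direction. Each date without leukocyte-marked cells was an alternative chosen after seeing the data. The cause of the changes below was not tested. The Aire ratio of 1.29 was 3.59 on the second date, 1.05 with ls primers, 5.40 with umi primers and 1.62 without leukocyte-marked cells (1.57 on the first date, 4.55 on the second), and 0.981 to 2.01 with 1 pool left out. The MHC class II ratio of 1.37 was 1.05 on the first date, 1.90 on the second, 1.28 with ls and 1.90 with umi primers, 1.11 without leukocyte-marked cells (1.12 and 1.24 by date), 1.39 without the 20% of cells of lowest depth, 1.33 with TMM, 1.25 as a mean of per-cell levels, and 1.17 to 1.46 with 1 pool left out. Genes at least 4-fold higher in KO GFPlo numbered 1320, 740 with at least 50 counts, 2664 with at least 1 and 1179 to 1398 with 1 pool left out, and those lower numbered 1736, 1082, 2980 and 1601 to 1781. The antigen median of −1.58 was −3.02 on the first date and −0.10 on the second (−3.21 and −0.40 without leukocyte-marked cells), and −1.91 to −0.96 with 1 pool left out. The difference in antigens per thinned cell, −9.5, was 4 on the second date without leukocyte-marked cells, and −11 to −6 with 1 pool left out. That in genes per thinned cell, −278.5, was −296.5 to −107.5 with 1 pool left out.

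Among named genes at least 4-fold apart, log2 ratios that changed sign were, with umi primers, those of Bhmt (1.96), Cxcl12 (1.96), Hrsp12 (−1.21), Krt10 (2.70) and Saa1 (−2.90). On the first date they were those of Igj (2.50), Saa1 (−4.27) and Tyrobp (−1.64), on the second that of Krt10 (6.92), and without leukocyte-marked cells those of Ccl22 (−0.996) and Tyrobp (−1.57). With 1 pool left out Krt10 ran from −3.77 to 0.68. Smaller ratios changed sign too, and are not all listed. Among lists at least 2-fold apart, the Fezf2-linked antigens had ratios of 1.52 on the second date, 2.06 there once leukocyte-marked cells were dropped and 2.49 with umi primers, under which liver enzymes had 2.08 and pancreas genes 2.57. With TMM scaling 29 of 35 lists and 107 of 109 named genes moved by less than their counting interval. Other alternatives moved more of them. Without the shallowest cells 28 of 35 lists and 99 of 109 genes stayed within their interval. With per-cell means 9 of 35 lists and 65 of 109 genes did, and without leukocyte-marked cells 4 of 35 and 58 of 109. With ls primers alone 8 of 35 lists did, on the first date alone 8 of 35 and on the second 6 of 35. Cells with umi primers number 12 KO and 11 WT. Depth limits single genes: a gene at 0 in 48 thinned KO cells may show a count at this depth in up to 6.25% of such cells, with 3 counts as the limit.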
